A study of Mus musculus with 2 samples.

Results

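Myc and the genes of ribosome assembly were followed in 2 mouse samples enriched for blood stem and progenitor cells, measured on Illumina bead arrays. The set is a list of 58 gene symbols: the transcription factor gene Myc, its partner Max, and 56 genes whose products make, modify or assemble the ribosome in the nucleolus. All probes that the platform annotation pairs with 1 of these symbols alone were taken, which gave 94 probes for 54 of the 58 genes, out of 19057 genes with a named probe. No probe was named for Npm3, Fbl, Ddx18 or Nol8, which are not analysed here. Utp11l is listed under its current symbol, Utp11.

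A sample was labelled CA/CA, read here as the genotype of the transgenic mice of the series, in which a constitutively active form of the kinase IKK2 is expressed in hematopoietic stem cells. The other was labelled control, and the sources used here give no allele, treatment or age for either. Both were total RNA of Flt3low LSK cells, cells sorted as Lin-Sca1+c-Kit+ with little surface Flt3, a fraction in which stem cells are found. Since each group had 1 array, spread between replicates is unknown and no difference was tested, and the values describe these 2 samples rather than 2 genotypes. The number of arrays limits the precision. How many mice gave each sample, the promoter or Cre that drives the transgene, and any allele that both groups share are not stated in the labels.

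As background, Myc binds DNA as a dimer with Max, mostly at the sequence CACGTG (the E-box), and is known to raise transcription of the nucleolar genes on which ribosome production depends. In the nucleolus RNA polymerase I transcribes ribosomal RNA, small nucleolar ribonucleoproteins (snoRNPs) guide its chemical modification and early cleavage, and separate sets of assembly factors build the small and the large subunit. Hematopoietic stem cells are known for a low rate of protein synthesis that increases in dividing progenitors.

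A probe counted as measured where its normalized signal reached the background floor of 92.0 units on at least 1 array, and 37.0% of the 45281 probes on each array did so. Of the 54 genes with a named probe, 48 were measured, all 48 of them above the floor on both arrays, through 73 of the 94 probes. A gene's signal is the mean over its measured probes, and its difference is log2 of the signal plus 16 units in CA/CA minus the same in control, averaged over those probes. Signals of different genes cannot be ranked, since probes differ in brightness. Among the markers of the sorted population, Kit had a mean signal of 677 in CA/CA and 970 in control, with its 2 probes at -0.58 and 0.21, Cd34 had 153 in CA/CA and 287 in control, Flt3 lay below the floor on both arrays, and Ly6a had no named probe.

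Every measured gene of the set was higher in CA/CA by the mean of its probe differences, most of them by less than 1.5-fold. All 48 differences were above 0, against 50.9% of all 10118 measured genes. Their differences ran from 0.02 for Nob1 to 1.01 for Gnl3, with a median of 0.48 and a middle range from 0.27 to 0.66, against a median of 0.01 over all measured genes. At least 1.5-fold higher in CA/CA were 15 of the 48, or 31.25%, where 4.07% of all measured genes were, and 0 were at least 1.5-fold lower, where 5.71% of all measured genes were. At least 2-fold higher was 1 gene, Gnl3, against 1.34% of all genes, and 0 were at least 2-fold lower, against 1.67%. In the ranking of all measured genes by difference, 40 of the 48 stood above the 75th percentile, a difference of 0.16, and 30 above the 90th. The members had been chosen with earlier results of these arrays known, so these counts describe them and carry no p-value.

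**Figure D1:**
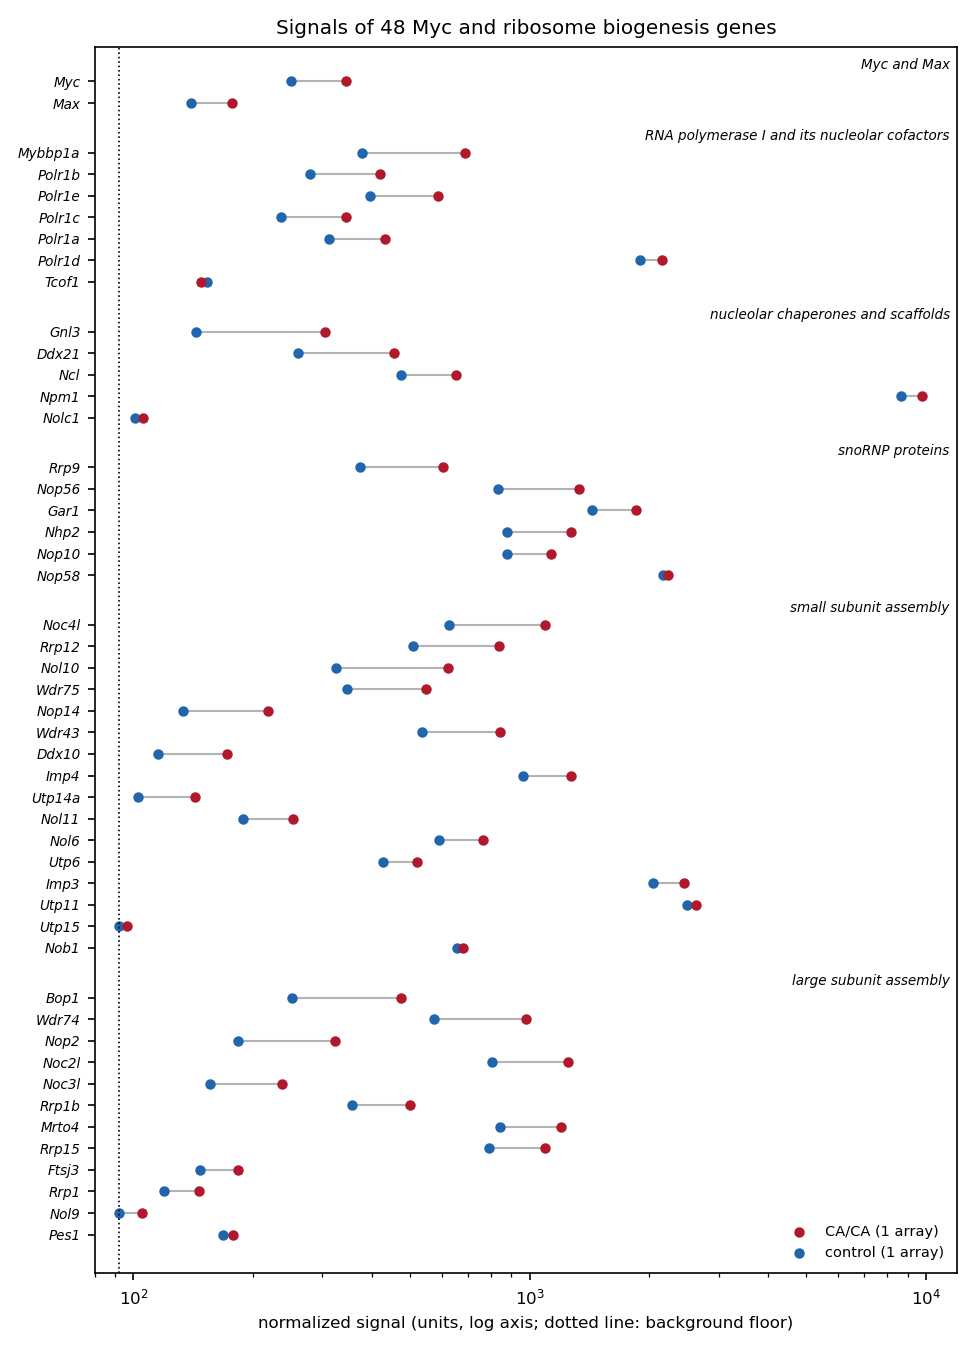
Normalized signal (log axis, in units) of the 48 measured genes on the CA/CA array (red) and the control array (blue), 1 array each, grouped by role; the dotted line is the background floor of 92.0 units. The CA/CA point lies to the right of the control point for every gene except Tcof1, whose mean signals were 148 in CA/CA and 153 in control.

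The deposited signals still hold background, so differences of dim genes are understated on this scale. After background subtraction by normexp, a model of signal over noise, 25 of the 48 were at least 1.5-fold higher, against 9.16% of all measured genes, and 5 were at least 2-fold higher, against 2.53%. Those 5 were Gnl3, Nop2, Bop1, Nop14 and Nol10, with differences of 1.54, 1.17, 1.11, 1.11 and 1.05 on that scale. The 21 probes of the set that lay below the floor on both arrays differed by at most 0.11 in either direction, and 9 of them were above 0. The 6 genes with dim probes alone, Dkc1, Utp18, Utp20, Nop16, Wdr12 and Rrs1, were not measured. With every probe kept whatever its signal, 50 of the 54 genes were above 0, against 50.6% of all genes, and 12 were at least 1.5-fold higher, against 1.61%, with Bop1, Mybbp1a and Wdr43 no longer among them.

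Myc itself was moderately higher in CA/CA. Its 1 measured probe had a signal of 344 in CA/CA and 250 in control, a log2 difference of 0.44, and its other probe stayed under the floor in either sample. Max had a signal of 177 in CA/CA and 140 in control, a difference of 0.31. Both differences were short of 1.5-fold, which corresponds to 0.58 on the log2 scale. They exceeded the SD of 0.24 between different probes of 1 gene, which describes spread between probes and not between samples. With every probe kept whatever its signal, Myc stood at 0.21, below that SD. Over the whole set, 38 of the 48 genes, or 79.2%, had a positive difference larger than that SD, as did 17.6% of all measured genes.

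Around Myc and Max, the other genes of the Myc network lay on both sides of 0. The largest difference of any gene in this network was that of Mxd4, which encodes a Max partner that represses E-box genes in place of Myc and is known from differentiating cells. Mxd4 had a mean signal of 170 in CA/CA and 485 in control, a log2 difference of -1.07, and its 3 probes were lower by -0.41, -0.96 and -1.85. Mxd3, of the same repressor family, had a signal of 117 in CA/CA and 188 in control, a difference of -0.62. Another repressor of the family, Mxd1, lay on the other side, at 136 in CA/CA and 119 in control, a difference of 0.17.

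The network's remaining genes differed little. Zbtb17, which encodes Miz1, a zinc finger partner of Myc, had a signal of 642 in CA/CA and 780 in control, a difference of -0.27. Mlxip, which encodes a glucose-responsive partner of Mlx, had 191 in CA/CA and 239 in control, a difference of -0.31. Of the 12 genes listed beside Myc and Max, 10 were measured. Their median difference was -0.10, with 3 above 0 and 7 below. Over all measured genes 50.9% were above 0. At least 1.5-fold higher were 0 of the 10, against 4.07% of all measured genes, and 2 reached 1.5-fold on the lower side, Mxd3 and Mxd4, against 5.71%. Mycl was above the floor in CA/CA only and at least 1.15-fold higher there, and Mycn lay below the floor on both arrays.

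**Figure D2:**
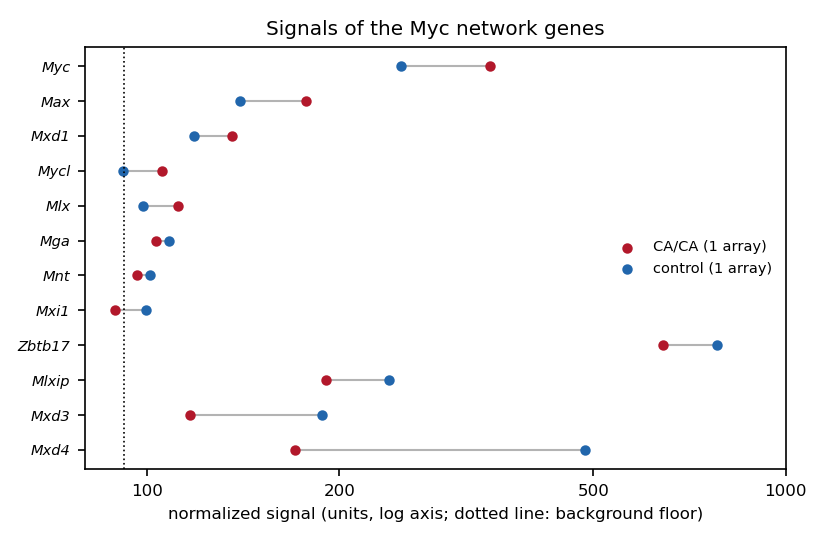
Normalized signal (log axis, in units) of Myc, Max and 10 other measured Myc network genes on the CA/CA array (red) and the control array (blue), 1 array each; the dotted line is the background floor. Myc and Max are higher in CA/CA, while Mxd4, at 170 in CA/CA and 485 in control, and Mxd3 are lower.

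RNA polymerase I transcribes the large ribosomal RNA precursor. Its subunit genes within the set and those of the nucleolar cofactors Tcof1 and Mybbp1a make 7 genes. All 7 were above 0 by their mean probe difference, where 50.9% of all measured genes were. Their median was 0.52. Against 4.07% of all measured genes, 1 of the 7 was at least 1.5-fold higher. That gene was the cofactor gene Mybbp1a, which encodes a nucleolar Myb-binding protein, with a mean signal of 685 in CA/CA and 377 in control. Its difference was 0.70, and its 4 measured probes ranged from 0.45 to 0.92. The second-largest polymerase subunit gene Polr1b had a signal of 419 in CA/CA and 279 in control, a difference of 0.56.

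The other subunit genes of the set differed by 0.20 to 0.55. Polr1e, an accessory subunit, had 587 in CA/CA and 395 in control, a difference of 0.55. Polr1c, a subunit shared with RNA polymerase III, had 343 in CA/CA and 235 in control, a difference of 0.52. The catalytic subunit gene Polr1a had 431 in CA/CA and 311 in control, a mean of 0.31 over 4 probes that ran from 0.13 to 0.57. All 4 were above 0. Polr1d, also shared with polymerase III, had 2160 in CA/CA and 1898 in control, a difference of 0.20. Tcof1, which encodes the polymerase I cofactor treacle, was the exception in size and in probes: its mean difference was 0.03, with 2 dim probes at 0.18 and 0.12 and its brightest probe at -0.21. Among polymerase I subunit genes outside the set, Znrd1 was lower, at -0.22 over 3 probes that ran from -0.50 to 0.06. Cd3eap and Twistnb, also outside it, differed by 0.14 and 0.20.

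Genes of abundant nucleolar proteins varied most among themselves, from 0.05 to 1.01. Gnl3, which encodes nucleostemin, a nucleolar GTPase known from stem cells, had a signal of 305 in CA/CA and 144 in control through 1 probe. This difference of 1.01 stood at percentile 98.7 of all measured genes. Ddx21, a nucleolar RNA helicase, had a mean signal of 454 in CA/CA and 261 in control, with its 2 probes at 0.70 and 0.81.

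The best-known members of this group differed less. Ncl, which encodes nucleolin, had 653 in CA/CA and 475 in control, a difference of 0.52, with probes at 0.34 and 0.71. Npm1, which encodes nucleophosmin, had 9765 in CA/CA and 8657 in control, a difference of 0.17. Nolc1, which encodes a snoRNP scaffold, was close to background, at 106 in CA/CA and 101 in control.

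Among snoRNP proteins all 6 measured genes had a positive difference, compared with a 50.9% share among the 10118 genes measured on these arrays. Their median was 0.48. The 1.5-fold mark was passed in CA/CA by 2 of the 6, compared with a 4.07% share among those 10118. The core proteins of the box C/D particles, which guide ribose methylation, did not move alike. Nop56 had a signal of 1331 in CA/CA and 835 in control, a difference of 0.66. Its partner Nop58 had 2237 in CA/CA and 2178 in control, a difference of 0.04, and each gene had 1 measured probe. Rrp9, which belongs to the U3 particle that cleaves the precursor, had 603 in CA/CA and 373 in control, a difference of 0.67. The H/ACA particles guide pseudouridylation. The mean differences of their measured genes stood close together, while single probes ran from 0.21 to 0.61. Gar1 had 1858 in CA/CA and 1435 in control, Nhp2 had 1273 in CA/CA and 876 in control, and Nop10 had 1135 in CA/CA and 875 in control, with differences of 0.48, 0.48 and 0.30. Dkc1, the pseudouridine synthase of the same particle, lay below the floor on both arrays, at 82.1 in CA/CA and 83.2 in control.

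**Figure D3:**
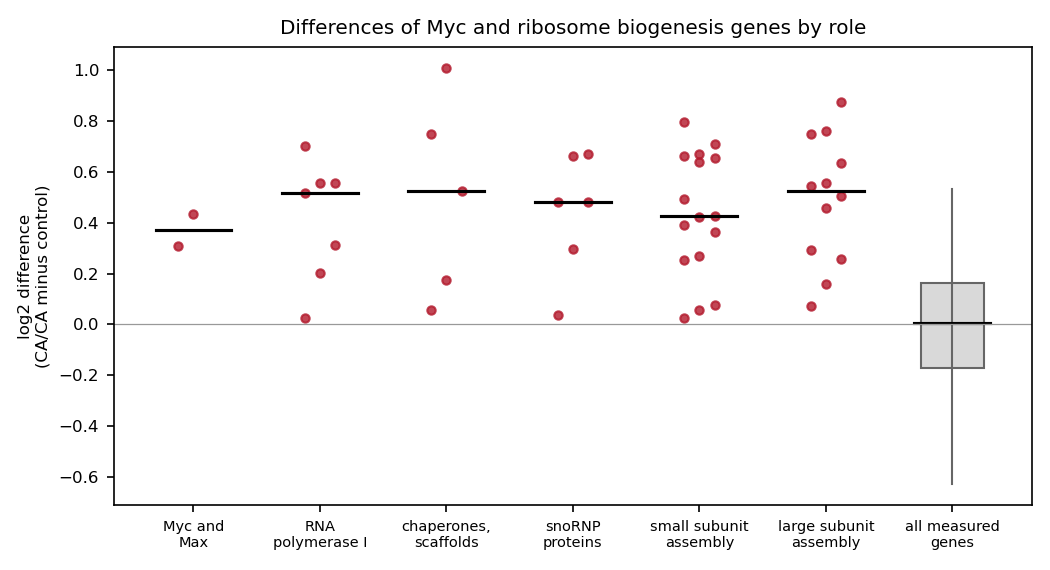
Log2 difference, CA/CA minus control, of each measured gene (red points) by role, with the group median as a black bar; the grey box spans the middle 50% of all 10118 measured genes (-0.17 to 0.16) and its line the 5th to 95th percentiles (-0.63 to 0.53). The medians of the 5 nucleolar roles lie between 0.42 and 0.52, and no point lies below 0.

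Small subunit assembly was the largest group, with 16 of 18 genes measured, all above 0, 6 at least 1.5-fold higher and a median of 0.42. The shares over all measured genes were 50.9% above 0 and 4.07% at least 1.5-fold higher. Noc4l, a nuclear assembly factor that works with Nop14, had a mean signal of 1094 in CA/CA and 626 in control, with its 2 probes at 0.69 and 0.90. Nop14 had 219 in CA/CA and 133 in control, a difference of 0.66. Rrp12, which takes part in export of the new subunits, had 840 in CA/CA and 507 in control, a difference of 0.71.

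The subcomplex that first binds the nascent precursor, called t-UTP or UTPA, was represented by several genes of unlike size. Wdr75 had 548 in CA/CA and 345 in control, with probes at 0.63 and 0.70, and Wdr43 had 840 in CA/CA and 534 in control, a difference of 0.64. Nol11 had 253 in CA/CA and 189 in control, a difference of 0.39, and Utp15 was at the floor, at 96.5 in CA/CA and 92.0 in control. Nol10, another processome protein, had 621 in CA/CA and 326 in control, with its bright probe at 0.98 and its dim probe at 0.37.

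The other genes of this group differed by less than 1.5-fold. Utp11 had 2638 in CA/CA and 2500 in control, a difference of 0.08. The U3-associated Imp3 and Imp4 differed by 0.25 and 0.43, with Imp3 at 2453 in CA/CA and 2053 in control and Imp4 at 1269 in CA/CA and 963 in control. Ddx10, a helicase, Utp14a, Nol6 and Utp6 differed by 0.49, 0.42, 0.36 and 0.27. Nob1, the nuclease that makes the last cut of the small subunit RNA, had 680 in CA/CA and 656 in control, and its probes disagreed, at -0.22 and 0.27. Utp18 and Utp20 lay below the floor on both arrays.

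Large subunit assembly genes had a median of 0.52, with 12 of 17 measured, all above 0, and 4 at least 1.5-fold higher. Of all measured genes, 50.9% were above 0 and 4.07% at least 1.5-fold higher. Bop1, Pes1 and Wdr12 encode the 3 proteins of the PeBoW complex, which is needed to process the large subunit RNAs. Bop1 had a signal of 474 in CA/CA and 251 in control, a difference of 0.87, while Pes1 had 178 in CA/CA and 169 in control, a difference of 0.07, and Wdr12 lay below the floor on both arrays.

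Nop2, a methyltransferase of the large subunit RNA, had probes that lay close together. Its mean signal was 323 in CA/CA and 184 in control, and its 3 probes lay at 0.70, 0.72 and 0.83. Wdr74 had 979 in CA/CA and 572 in control, a difference of 0.76. The paired factors Noc2l and Noc3l differed by 0.63 and 0.56, with Noc2l at 1254 in CA/CA and 802 in control and Noc3l at 237 in CA/CA and 156 in control. Noc2l passed 1.5-fold and Noc3l, Polr1b and Polr1e stood just short of it.

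Among the other large subunit factors, Rrp1b, a nucleolar protein known from ribosomal RNA processing, had 500 in CA/CA and 357 in control, a mean difference of 0.54 that 1 of its 4 probes carried, at 1.06, while the other 3 lay between 0.28 and 0.46. Mrto4, which holds the place of a stalk protein in the immature subunit, had 1201 in CA/CA and 842 in control, a difference of 0.50. Rrp15 had 1092 in CA/CA and 791 in control, a difference of 0.46. Ftsj3, an RNA methyltransferase, Rrp1 and Nol9, a polynucleotide kinase of spacer processing, differed by 0.29, 0.26 and 0.16. Nop16 and Rrs1 lay below the floor on both arrays.

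Where a gene had several measured probes, these mostly shared a direction. Of 17 such genes, 15 had all probes above 0, the exceptions being Tcof1 and Nob1. Of the 73 measured probes of the set, 71 were above 0 and 2 below. The same counts were not made for the probes of all measured genes, so no share over all genes stands beside them. Probes of 1 gene share the RNA sample and are not replicates.

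**Figure D4:**
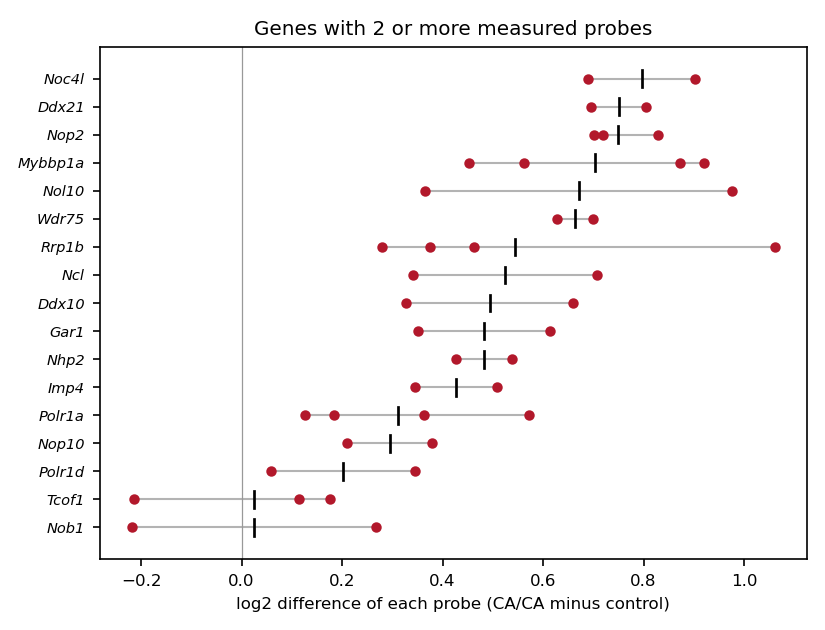
Log2 difference, CA/CA minus control, of every measured probe (red points) of the 17 genes with 2 or more, with the gene's mean as a black tick. Only Tcof1 and Nob1 have probes on both sides of 0, and Rrp1b has 1 probe at 1.06 far from its other 3.

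The promoters of the set were searched for the E-box, the sequence that Myc binds with Max. The sequences were those of RefSeq on build GRCm38.p6, from 250 bases before to 50 bases after each annotated start, and 48 of the 58 genes had an entry. The motif CACGTG, which reads the same on both strands, was found in 9 of the 48 genes, or 18.8%, and in 7 of the 40 measured ones, or 17.5%. It was found in 13 of 61 other ribosome biogenesis genes, or 21.3%, in 12.03% of the 8277 measured genes with an entry, and in 8.09% of all 27025 genes of the table. The related motif CACGCG, searched on both strands as CACGCG or CGCGTG, was found in 15 of the 48, or 31.25%, and in 13 of the 40 measured ones, or 32.5%, against 31.1% of the other ribosome biogenesis genes, 19.4% of the measured genes and 10.5% of all genes. In the set no CACGTG match shared bases with a CACGCG match, while Mybbp1a and Noc2l each held 2 CACGCG matches that shared bases. A match is a description of the letters only.

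Printed here are the promoter of Max, the partner needed for binding, and those of the 3 genes that held CACGTG and were at least 1.5-fold higher in CA/CA, with the motif in capitals. Max lies at chr12:76962199-76962498, minus strand, Nop2 at chr6:125131633-125131932, plus strand, Mybbp1a at chr11:72441077-72441376, plus strand, and Wdr43 at chr17:71615965-71616264, plus strand, each written 5′ to 3′ along the gene.
Max: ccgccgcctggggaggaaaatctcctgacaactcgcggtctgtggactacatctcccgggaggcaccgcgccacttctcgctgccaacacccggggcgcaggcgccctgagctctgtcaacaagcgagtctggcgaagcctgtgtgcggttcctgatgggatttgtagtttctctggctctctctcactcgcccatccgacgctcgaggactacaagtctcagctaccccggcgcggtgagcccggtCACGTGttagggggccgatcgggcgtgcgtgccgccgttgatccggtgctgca
Nop2: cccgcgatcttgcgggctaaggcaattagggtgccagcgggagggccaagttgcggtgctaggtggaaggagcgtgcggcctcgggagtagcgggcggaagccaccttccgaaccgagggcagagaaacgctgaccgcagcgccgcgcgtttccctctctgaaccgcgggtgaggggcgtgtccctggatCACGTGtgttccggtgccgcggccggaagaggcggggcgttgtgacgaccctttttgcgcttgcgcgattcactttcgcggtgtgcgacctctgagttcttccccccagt
Mybbp1a: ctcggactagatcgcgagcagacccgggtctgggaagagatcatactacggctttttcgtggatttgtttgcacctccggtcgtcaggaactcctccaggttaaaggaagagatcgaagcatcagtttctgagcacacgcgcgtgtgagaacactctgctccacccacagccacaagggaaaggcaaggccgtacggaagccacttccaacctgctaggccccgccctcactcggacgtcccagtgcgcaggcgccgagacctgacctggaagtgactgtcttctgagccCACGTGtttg
Wdr43: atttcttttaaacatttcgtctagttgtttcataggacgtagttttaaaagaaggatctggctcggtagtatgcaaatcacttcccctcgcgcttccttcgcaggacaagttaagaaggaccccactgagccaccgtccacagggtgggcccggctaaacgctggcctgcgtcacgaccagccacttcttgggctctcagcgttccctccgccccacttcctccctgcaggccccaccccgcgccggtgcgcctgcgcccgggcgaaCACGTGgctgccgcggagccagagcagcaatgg

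In Max the motif spans the annotated start itself, from base -3 to base 3. In Nop2 it lies upstream, from base -60 to -55, and in Mybbp1a and Wdr43 it lies after the start, from base 41 to 46 and from base 18 to 23. The other genes with it were Imp4, Nol11, Pes1, Utp18 and Utp20. The 7 measured genes with CACGTG had a median difference of 0.43, ranging from 0.07 to 0.75, and the 33 measured genes without it had a median of 0.50, ranging from 0.02 to 1.01. Gnl3, with the largest difference of the set, had no CACGTG in its 300 bases.

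Ribosome assembly genes outside the set were mostly higher in CA/CA, with a median difference of 0.31. Of 73 listed names, 72 had a named probe and 62 were measured. Above 0 were 56 of the 62, against 50.9% of all measured genes, and 6 were below. A 1.5-fold difference was reached by 10 on the higher side, against 4.07% of all measured genes, and by 0 on the lower, against 5.71%. Lyar, a nucleolar zinc finger gene, had a signal of 412 in CA/CA and 235 in control, a difference of 0.77, and Wdr46, a small subunit factor, had 626 in CA/CA and 359 in control, with both probes at 0.77 and 0.78.

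Further genes at that size covered other steps. Mak16, a large subunit factor, had 1118 in CA/CA and 653 in control, a difference of 0.76. Exosc8, a subunit of the RNA exosome that trims precursors, had 573 in CA/CA and 333 in control, a difference of 0.76, and Emg1, a small subunit methyltransferase, had 533 in CA/CA and 318 in control, a difference of 0.74. The lowest, chosen after its value was seen, was the helicase gene Ddx49, at -0.30, whose 2 probes disagreed, at -0.84 and 0.24.

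Myc targets outside ribosome assembly were also mostly higher, with larger single values. Of 24 listed, 23 were measured, and their median difference was 0.48. Above 0 were 20 of the 23, against 50.9% of all measured genes, and 3 were below. A 1.5-fold difference was reached by 8 on the higher side, against 4.07% of all measured genes, and by 0 on the lower, against 5.71%. At least 2-fold higher were 3 of the 23, against 1.34% of all measured genes. Tfrc, the transferrin receptor gene, which red cell precursors also use heavily, had a signal of 2698 in CA/CA and 1028 in control, a difference of 1.38. Hspd1, a mitochondrial chaperonin gene, had 1668 in CA/CA and 707 in control, a difference of 1.32, with probes at 0.97 and 1.68.

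Metabolic targets followed. Odc1, the first enzyme of polyamine synthesis, had 3022 in CA/CA and 1484 in control, a difference of 1.02. Mthfd2, of mitochondrial folate metabolism, had 901 in CA/CA and 492 in control, a difference of 0.83, and Hspe1, the partner of Hspd1, had 375 in CA/CA and 209 in control, a difference of 0.80. These lists were drawn up from general knowledge with earlier results of these arrays known, and say nothing of which factor acted.

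**Figure D5:**
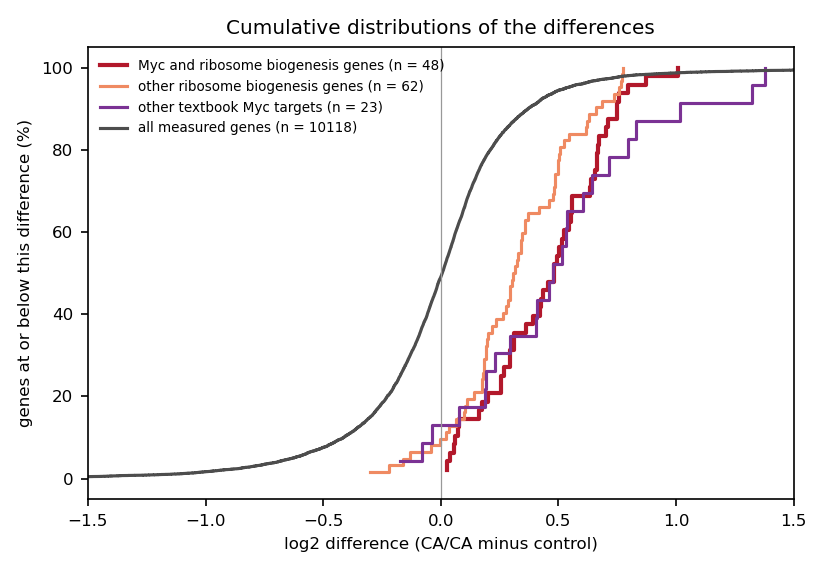
Cumulative share of genes (percent) at or below each log2 difference, CA/CA minus control, for the 48 Myc and ribosome biogenesis genes (red), 62 other ribosome biogenesis genes (orange), 23 other textbook Myc targets (purple) and all 10118 measured genes (grey). The 3 lists lie to the right of the grey curve, with medians of 0.48, 0.31 and 0.48 against 0.01.

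Several markers of other cell types differed between the same 2 samples. Of 8 measured erythroid markers, 7 were at least 2-fold higher in CA/CA, against 1.34% of all measured genes, and the globin gene Hba-a1 had 939 in CA/CA and 1036 in control, a difference of -0.14. The list had a summed signal of 10451 in CA/CA and 2322 in control. Of 8 B cell progenitor markers, 6 were measured and 5 were at least 2-fold lower, against 1.67% of all measured genes, with a summed signal of 979 in CA/CA and 9586 in control, and Pax5 lay below the floor on both arrays. Of 8 granulocyte and monocyte markers, 6 were measured and 3 were at least 2-fold lower, against 1.67% of all measured genes. Csf1r alone of the 6 lay above 0, at 173 in CA/CA and 143 in control, a difference of 0.27. The 6 had a summed signal of 17068 in CA/CA and 36550 in control, and Itgam lay below the floor on both arrays.

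Mature lymphocyte markers stayed dim, with 5 of 9 measured and Cd8a, Cd5 and Ms4a1 below the floor on both arrays. The 5 measured had a summed signal, background included, of 576 in CA/CA and 466 in control. Above 0 were 4 of the 5, against 50.9% of all measured genes, and 1 was below. The largest difference was that of Cd3d, 0.52, at 154 in CA/CA and 102 in control. Of 10 genes of S phase and mitosis, 7 were measured, with a median of 0.24. Their summed signal was 7929 in CA/CA and 7538 in control, of which Mcm5 alone gave 3960 and 3874. Among them Ccne1 and Ccne2, which encode cyclins of S phase entry, differed by 0.94 and 0.78, Mcm2 by 0.24, and Cdk1 by -0.45. The part of cell composition and of cell cycle in the differences of the set was not tested, and in sorted bulk samples fewer cells of a type and less RNA per cell cannot be told apart.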

How the data were processed

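Total RNA of Flt3low LSK cells was amplified, biotin-labelled and hybridised in 1 colour, per the labels' protocols. BeadStudio is named in the submitters' processing notes, and the sources used here give neither its version nor the normalization method. The authors' deposited intensity values were linear, ran from 71.9 to 17159 units and had the same median, 86.1, on both arrays. Once sorted, the 2 columns were nearly equal (largest log2 gap 0.0022), the pattern that quantile normalization leaves. A table of non-normalized signals holds 4 value columns whose headings match no sample label, and it was not used, so the design's fallback scale and floor applied.

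The floor was the background mode, 81.7 units (middle of the shortest interval holding 25% of values), plus 4 times 2.57, the root mean square distance of lower values from it. Of 45281 probes, 34885 had 1 symbol, 18 several and 10378 none, and 34807 matched the RefSeq gene table by Entrez identifier. Genes above the floor on 1 array only are given and called as at-least folds, which are ratios of signals without the 16 units. For all other genes a call is a fold of 1.5 or 2, on signal plus 16 units. Members, roles, lists, the floor and the offset were chosen with earlier results of these data known. All 58 members are accounted for, and of each pathway list the 5 genes with the largest absolute difference are named. With 1 array a group there was no test. The steps were also run on simulated data with known folds in bright genes only and with less noise than the SD between probes. That run cannot show how dim genes behave. Work used Python 3.11.15, numpy 2.4.6, pandas 2.3.3 and limma 3.58.1 in R 4.3.3. Alternatives were other offsets, normexp, other floors, the brightest or median probe, and centring on the median of all genes.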

Additional observations from a re-analysis of the deposited data

How the results depend on the processing

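The direction of the set held under the 10 alternatives, with a median difference between 0.31 and 0.64, and the count above 0 between 47 and 50 genes. The share of all genes above 0 was between 48.9% and 51.3%. No alternative put a gene of the set at least 1.5-fold lower, where between 2.22% and 10.46% of all genes were. With normexp the count at least 1.5-fold higher was 25, against 9.16% of all genes, and that at least 2-fold higher was 5, against 2.53%. With an offset of 50 the count at least 2-fold higher was 0, against 1.16% of all genes. That at least 1.5-fold higher was 14, without Nop14 at 0.55, against 3.48%. With no floor, which adds probes at background, the count at least 1.5-fold higher was 12, against 1.61% of all genes. Bop1 at 0.45, Mybbp1a at 0.57 and Wdr43 at 0.31 were no longer in it. The median of the RNA polymerase I genes was 0.27 under that setting. There, 54 genes had a value, and 4 of them, Dkc1, Nop16, Rrs1 and Utp18, were below 0. With the floor at the mode plus 3 SD, Rrs1 entered at -0.03, and with the brightest probe per gene Tcof1 stood at -0.21. Of the 140 comparisons of a summary value with its alternative, 136 stayed within 1.5 times or within the SD between probes. That margin is wide: the set median of 0.48 counted as unchanged at 0.31. The counts of lower genes, 0 under every setting, are among the 136. No replicate could be left out with 1 array per group. No paired analysis was possible because each group had 1 sample. Dim genes near the floor, such as Utp15, Nolc1 and Nol9, carry little information, since the remaining background sets most of their signal.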
